A study of Rattus norvegicus with 2 samples.

Results

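The proteasome and ubiquitin conjugation genes were compared between cultured rat endothelial cells from the aorta and cultured cells from the endocardium, the lining of the heart chambers. Members were the genes whose symbol begins as that of a proteasome subunit, a ubiquitin-activating or ubiquitin-conjugating enzyme, a ubiquitin precursor, or a ubiquitin hydrolase or protease of the Uch and Usp families, and whose probe sets were paired with that symbol alone. They came to 43 genes and 71 probe sets, of 4736 genes on the array. These were 11 genes of the 20S core, 2 of the immunoproteasome, 14 of the 19S particle and the activators, and 16 of the ubiquitin enzymes. No ubiquitin precursor gene and no ubiquitin-activating enzyme was among them. Of the 7 probe sets that named a gene of this kind together with another gene, none was used for a gene value.

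Cells of both origins were taken from the same 2 rats, pooled by origin and passaged 2 times in culture conditions that the labels describe as closely matched. Strain, sex and age are not stated in the labels, and no treatment or allele separates the groups. Total RNA of each pool was hybridised to 1 Affymetrix rat U34A array, which reports an intensity for each probe set. Each group had 1 array, so the differences have no replicate check and no test was made; a pool of animals also gives no spread between animals. In such RNA a lower share of a cell type and less RNA per cell cannot be told apart. The arrays came from the same chip lot, and 2 settings differed between them, the fluidics module and the scan time, which cannot be told apart from the cell type.

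The proteasome degrades proteins that carry chains of ubiquitin. Its 20S core is a barrel of outer alpha rings (Psma genes) and inner beta rings (Psmb genes), which hold the proteolytic sites, and the 19S particle recognises, unfolds and feeds in the substrates. Ubiquitin is attached by an enzyme cascade of activating (E1), conjugating (E2) and ligating (E3) enzymes and is removed by deubiquitinases. In cells exposed to interferon gamma the catalytic subunits Psmb5, Psmb6 and Psmb7 are replaced by Psmb8, Psmb9 and Psmb10, and the product, the immunoproteasome, favours peptides that fit MHC class I molecules. Endothelial cells make this form when stimulated.

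Promoters of 4 members are shown as examples, those of the constitutive core subunits Psmb2 and Psmb5 and of the interferon-inducible Psmb8 and Psme2. Psmb2 and Psmb5 hold a match to the antioxidant response element core, TGACNNNGC, which binds the factors that raise proteasome genes when proteasome activity falls. Psmb8 and Psme2 hold a match to the core of the interferon-stimulated response element, which reads GAAA, any 2 bases and GAAA. Sequences are from RefSeq in build GRCr8, cover 250 bases before to 50 bases after each start site, run 5′ to 3′ on the strand of the gene, and have the match in capitals.
Psmb2, chr5:144254808-144255107, plus strand: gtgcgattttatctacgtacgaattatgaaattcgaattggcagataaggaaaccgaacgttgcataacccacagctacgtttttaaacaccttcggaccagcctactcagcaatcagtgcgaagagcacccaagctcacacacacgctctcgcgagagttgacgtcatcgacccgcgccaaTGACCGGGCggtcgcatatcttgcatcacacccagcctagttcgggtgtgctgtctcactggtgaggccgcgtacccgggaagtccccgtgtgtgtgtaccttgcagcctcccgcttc
Psmb5, chr15:32047330-32047629, minus strand: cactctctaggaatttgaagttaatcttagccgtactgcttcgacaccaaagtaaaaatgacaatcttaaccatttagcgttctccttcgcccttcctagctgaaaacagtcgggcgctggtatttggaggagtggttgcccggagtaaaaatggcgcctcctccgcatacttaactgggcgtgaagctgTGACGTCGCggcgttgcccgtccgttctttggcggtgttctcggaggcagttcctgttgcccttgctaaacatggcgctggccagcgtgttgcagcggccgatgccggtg
Psmb8, chr20:4656982-4657281, minus strand: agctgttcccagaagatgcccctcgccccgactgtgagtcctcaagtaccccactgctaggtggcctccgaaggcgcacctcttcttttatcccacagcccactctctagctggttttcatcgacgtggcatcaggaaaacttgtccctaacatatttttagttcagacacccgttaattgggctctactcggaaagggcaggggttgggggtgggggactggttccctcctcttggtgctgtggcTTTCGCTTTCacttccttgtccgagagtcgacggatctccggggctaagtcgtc
Psme2, chr15:33052702-33053001, minus strand: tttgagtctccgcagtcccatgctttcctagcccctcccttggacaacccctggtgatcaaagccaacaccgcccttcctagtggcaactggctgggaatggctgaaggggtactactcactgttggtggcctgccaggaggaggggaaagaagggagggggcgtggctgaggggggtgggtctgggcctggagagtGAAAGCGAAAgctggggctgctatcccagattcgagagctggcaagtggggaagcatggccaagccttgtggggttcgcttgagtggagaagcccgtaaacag

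Both strands were searched in windows of this length for 42 of the 43 members and for all 33469 promoters of the table. The match began 68 bases before the start site in Psmb2, 60 in Psmb5 and 53 in Psme2, and 4 bases before it, on the opposite strand, in Psmb8. In Psmb2 it shared 1 base with a CCAAT box, a common promoter element that was the third motif searched. TGACNNNGC was found in 2 of 10 20S core promoters, 2 of 14 promoters of the 19S particle and activators and 4 of 16 ubiquitin enzyme promoters, against 12.1% of all promoters. The interferon-stimulated core was found in Psmb8, Psme2, Psmb3 and Psma4, 4 of 42 members, against 3.92% of all promoters. Of these Psmb3 and Psma4 belong to the 20S core, where 2 of 10 promoters held it. The interferon-inducible Psmb9 and Psme1 had no match to it. CCAAT was found in 7 of 10 core promoters and 18 of 42 members, against 37.5% of all promoters. A match describes the letters of the window and is not evidence of binding.

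Intensities were compared after scaling both arrays to the same trimmed mean. Values at or under a floor of 635.4, the median of all scaled intensities, were set to the floor, and a probe set at or under it on both arrays was left out. Of the 71 member probe sets 58 were above the floor on both arrays, 4 on 1 array and 9 on neither. A measured value was thus available for 38 of the 43 genes. The other 5 were Psmd10, Ube2d2b, Ube2e3, Ube2m and Usp37. The value of a gene is the median of the log2 ratios (endocardial over aortic) of its kept probe sets, and 16 genes had several. The highest of 38 background controls on the arrays, which have no matching RNA in these cells, reached 1743.4, and 30 members exceeded it on both arrays. Of the 38 controls 7 exceeded the floor on the aortic array and 6 on the endocardial array, so a value above the floor can still be background. Where a gene has several probe sets, their intensities are listed in the same order for both arrays. Levels of different genes are not compared, since each probe set has its own response.

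The measured members had near-equal intensities on the 2 arrays. Of the 38 genes 1, Ube2g2, was brighter by at least 2-fold on the endocardial array, against a background of 5.93% of all 2935 measured genes, and 0 were dimmer by as much, against 4.16%. Counts this small cannot set the members apart from the background. The median log2 ratio was 0.01 over the members and -0.02 over all measured genes. Of the 38 members 34 lay within 0.5 of 0 on the log2 scale (89.5%), as did 69.4% of all measured genes. Among genes above the highest background control on both arrays the shares were 93.3% of 30 members and 78.7% of 1451 genes, and 0 of those 30 passed 2-fold, against 2.69% higher and 2.27% lower. The limit of 0.5 was chosen after the values were seen.

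**Figure D1:**
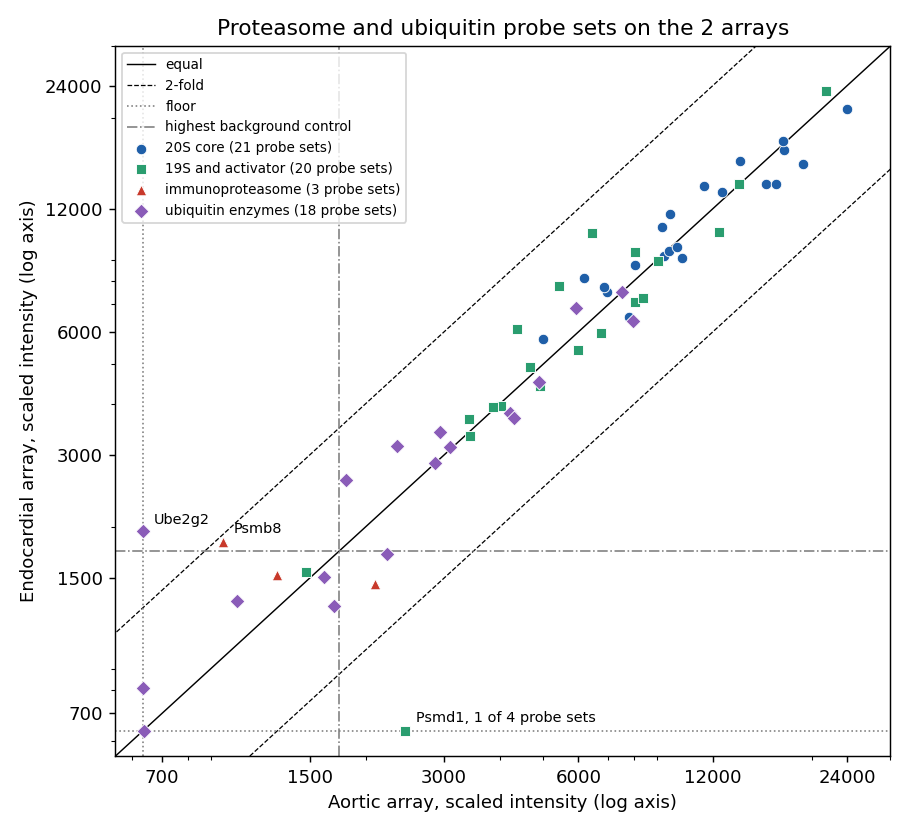
Scaled intensity of each kept member probe set on the aortic (x) and endocardial (y) array, both on log axes, with colours and shapes for the 4 groups; values under the floor are drawn at it. Most points follow the line of equality; beyond the 2-fold lines lie Ube2g2, which is under the floor on the aortic array, and 1 of the 4 probe sets of Psmd1, which is under it on the endocardial array.

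In the 20S core all 11 genes were measured and every value exceeded the highest background control. Their 21 kept probe sets had intensities from 5007 to 23945. The gene log2 ratios ran from -0.27 (Psmb4) to 0.29 (Psma7) with a median of 0.01 and an SD over genes of 0.16. All 11 genes lay within 0.5 of 0. The lowest gene value was that of Psma1 on the aortic array. Of the 444 genes at least that bright on both arrays, the core genes among them, 87.6% lay within 0.5 of 0 and the SD was 0.35. These genes were not matched to the core in number of probe sets, and a median over several probe sets can narrow the spread. At that brightness 1.13% of genes passed 2-fold in the higher and 0.676% in the lower direction, against 0 of the 11 core genes in either.

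Among the alpha subunits, which form the gated outer rings, Psma7 had intensities of 6171 and 13796 in aortic and 8116 and 15725 in endocardial cells, for its 2 probe sets. Both probe sets were brighter on the endocardial array, with log2 ratios of 0.40 and 0.19. Psma2 had 6848, 9218 and 12580 in aortic and 7701, 10844 and 13204 in endocardial cells. All of its 3 probe sets were again brighter on the endocardial array, with a median log2 ratio of 0.17. Psma1 had 6957 in aortic and 7496 in endocardial cells (0.11), and Psma4 had 9341 and 9187 (-0.02). Psma5 gave 5007 and 10245 in aortic and 5764 and 9073 in endocardial cells. Its 2 probe sets went opposite ways (0.20 and -0.18), which left a gene value of 0.01. Psma6 stood at 15746 in aortic and 13823 in endocardial cells (-0.19). Psma1, Psma5 and Psma6 each had 1 more probe set under the floor on both arrays. Across the 6 alpha genes 4 values were above 0 and 2 below, so they did not share a direction.

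The beta subunits were as close. Psmb5, which carries the chymotrypsin-like site, had aortic intensities of 11487, 17234 and 23945 and endocardial intensities of 13610, 17528 and 21092 for its 3 probe sets. The log2 ratios of 0.24, 0.02 and -0.18 have a median of 0.02, so the probe sets of this gene disagreed in direction. Psmb4, a structural beta subunit, had aortic intensities of 9623, 16580 and 19122 and endocardial intensities of 11667, 13774 and 15412. Its gene value of -0.27 was the lowest in the core, and 1 of its 3 probe sets went the other way (0.28). Psmb2, which like Psmb1, Psmb3 and Psmb4 lacks a proteolytic site of its own, had 8031 and 17297 in aortic and 8741 and 16740 in endocardial cells (0.04). Psmb3 had 7781 and 9993 against 6526 and 9674 (-0.15), lower with both probe sets. Psmb1 had 9590 in aortic and 9469 in endocardial cells (-0.02).

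Spread between probe sets of the same gene sets a scale for these differences. Over 625 genes with several probe sets that cleared the floor on each array, the SD within a gene was 0.39 in log2 ratio, and over 7 core genes with 17 such probe sets it was 0.21. No core gene value exceeded the first, and Psma7 and Psmb4 exceeded the second. Both SDs describe single probe sets, whereas the values of these 7 core genes are medians over several, which can vary less. The second SD was also taken from those genes, Psma7 and Psmb4 among them. Neither measures the spread between cultures. The core subunits Psmb6 and Psma3 were read only by probe sets that also name a near-identical copy. Those of Psmb6 had log2 ratios of -0.12 and -0.24 and that of Psma3 had -0.01. Of the other probe sets with several symbols, 1 names Psme3, a nuclear activator subunit, beside unrelated genes, with 885 in aortic and 1489 in endocardial cells (0.75), both under the highest background control. Another for Psme3 was below 0 on both arrays. The probe set shared by Ube2d2 and Ube2d3 had 4463 and 3437 (-0.38), and that of Usp12 and its copy had 732 and 477, the latter under the floor. None of these values can be assigned to a single gene.

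**Figure D2:**
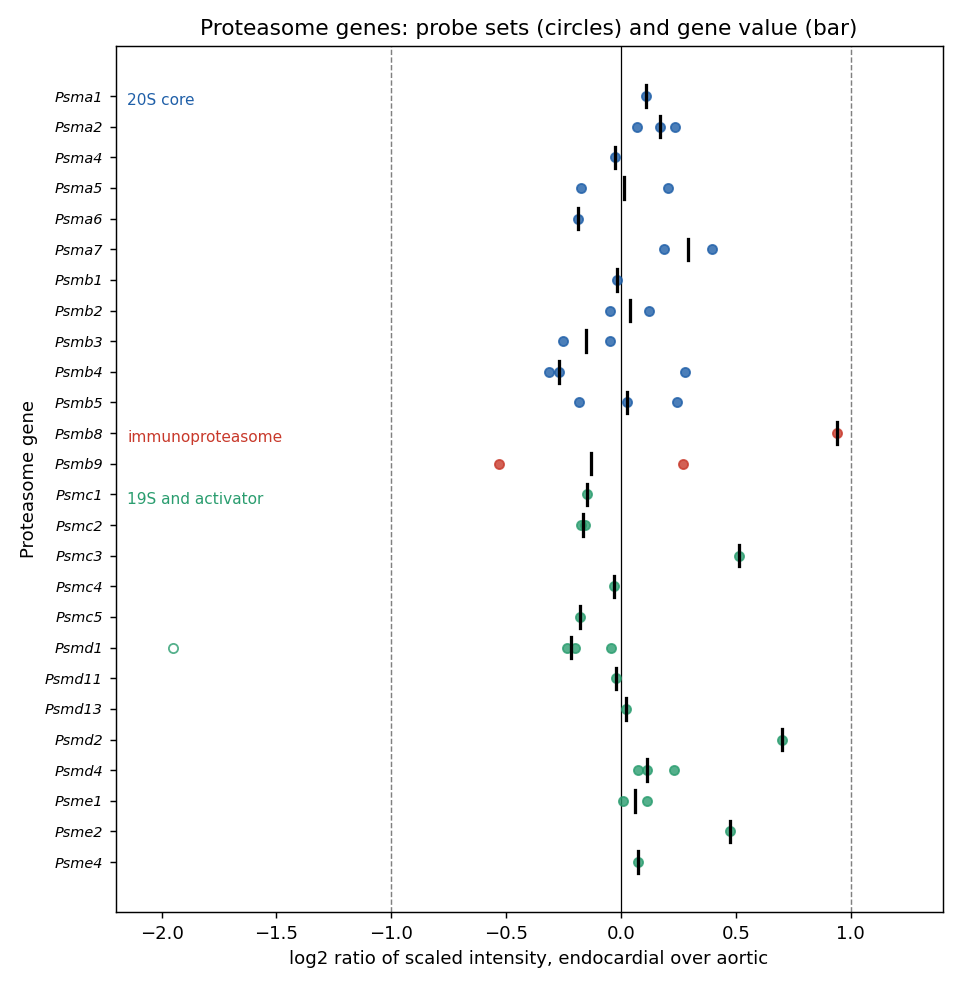
Log2 ratio of scaled intensity, endocardial over aortic (x), for each measured proteasome gene (y); circles are kept probe sets, open where 1 array was under the floor, bars are gene values, and dashed lines mark 2-fold. Core genes lie between -0.27 and 0.29, Psmb8 lies at 0.94, and the open circle of Psmd1 stands apart from its other 3 probe sets.

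Of the immunoproteasome subunits Psmb8 and Psmb9 were measured, and no probe set was paired with Psmb10 alone. Psmb8, which takes the place of Psmb5, read 957 in aortic and 1838 in endocardial cells, a log2 ratio of 0.94. The aortic value is under the highest background control and the endocardial value is 1.05 times that control. Psmb9, which takes the place of Psmb6, had 1267 and 2101 in aortic and 1527 and 1454 in endocardial cells. Its 2 probe sets, made for the same transcript sequence, went opposite ways (0.27 and -0.53), and 1 value of the 4 exceeded the control. With the floor raised to that control the median of both genes moved from 0.41 to -0.10.

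Some macrophage markers differed between the arrays in the direction of Psmb8. Of 9 listed, 8 were on the array, 7 were measured and 5 of these passed 2-fold with the brighter value on the endocardial array, against 5.93% of all measured genes. The 8 markers on the array had a summed intensity of 3034 in aortic and 44441 in endocardial cells, of which Lyz2 made up 288 and 33619. The ratios of the 5 are lower bounds set by the floor on the aortic array. Against the highest background control only Lyz2 still passes 2-fold. On the endocardial array Ctss read 3376, Cd53 2010, Cd74 at most 2861 and RT1-Da at most 2652. RT1-Db1 was near equal (0.05). Among defining markers Csf1r was under the floor on both arrays and Ptprc did not exceed the highest background control on either. The part of these cells in the Psmb8 value was not tested. Of 9 endothelial markers 7 were on the array. Neither array showed Pecam1, Vwf or Kdr above the floor, and Nos3, Thbd, Flt1 and Ace were measured, so the endothelial identity of the cultures is taken from the labels. Of the 4 measured endothelial markers 0 passed 2-fold in the higher and 1, Ace (-1.16), in the lower direction. The 6 fibroblast markers summed to 244687 in aortic and 200598 in endocardial cells, with 1 of them, Dcn, past 2-fold in the lower direction. The smooth muscle markers summed to 86959 and 138240, and of 5 measured 1 was past 2-fold higher, Myl9 (1.54), and 1 lower, Myh11, under the floor in endocardial cells. Such a sum is weighted by the probe sets with the strongest response. It adds the median intensity of each gene over all its probe sets, with values under the floor and below 0 left as they are.

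In the 19S particle and the activators 13 of 14 genes were measured, with 0 at least 2-fold higher and 0 lower, against 5.93% and 4.16% of all measured genes, shares that leave under 1 gene expected in each direction. They had a median log2 ratio of 0.02, a range from -0.22 to 0.70 and 7 values above 0. The base of the 19S particle holds a ring of ATPases, the Psmc subunits, that unfold substrates. Psmc5 had 8033 in aortic and 7089 in endocardial cells (-0.18) and Psmc1 had 5998 and 5417 (-0.15). Psmc2 had 4924 and 6734 in aortic and 4417 and 5968 in endocardial cells, with both probe sets lower (-0.16 and -0.17). Psmc4 had 4024 and 3944 (-0.03). Psmc3 was the exception in direction, with 5428 in aortic and 7748 in endocardial cells, a log2 ratio of 0.51 from 1 probe set. The other 4 of the 5 measured ATPase genes thus had slightly dimmer endocardial values.

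The Psmd subunits build the scaffold and the lid. Psmd2, a large scaffold subunit that docks ubiquitin-binding shuttle proteins, had 6441 in aortic and 10471 in endocardial cells. Its log2 ratio of 0.70 (1.63-fold) was the highest of any proteasome gene above the highest background control on both arrays, and it rests on 1 probe set. Psmd1, its partner scaffold, had 4 probe sets, of which 3 had log2 ratios from -0.23 to -0.04. The fourth read 2454 in aortic and 454 in endocardial cells, at least 3.86-fold lower against the floor, while the probe set with the ending _g_at for the same accession read 12375 and 10527. The gene value of Psmd1 was -0.22. Psmd4, the ubiquitin receptor of the particle, had 3403, 4679 and 8017 in aortic and 3681, 4924 and 9400 in endocardial cells, with all 3 probe sets higher (0.07 to 0.23). Psmd11 had 9052 and 8920 (-0.02) and Psmd13 had 3859 and 3921 (0.02), both lid subunits with nearly the same value on both arrays. Psmd10, an assembly chaperone of the 19S base, was under the floor on both arrays.

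The Psme genes encode activators that open the core without ubiquitin. Psme1 and Psme2, which form the interferon-inducible activator ring together, did not have the same ratio. Psme1 had 13716 and 21534 in aortic and 13805 and 23333 in endocardial cells (0.01 and 0.12), and a further probe set was under the floor on both. Psme2 had 4372 in aortic and 6083 in endocardial cells, a log2 ratio of 0.48 (1.39-fold), and each value exceeds the highest background control. The difference between these partners was not tested. Psme4, the activator linked to histone degradation, had 1474 and 1554 (0.08), both under that control.

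Of the 16 ubiquitin enzyme genes 12 were measured: 8 of 11 E2 genes, the E3 gene Ube3a and 3 of 4 deubiquitinases. Their median log2 ratio was -0.001, with 6 values above and 6 below 0. The 1 gene past 2-fold was Ube2g2, an E2 of the degradation of misfolded proteins from the endoplasmic reticulum, which had 523 in aortic and 1953 in endocardial cells. Against the floor it was at least 3.07-fold higher, and against the highest background control at least 1.12-fold. It rests on 1 probe set, whose aortic value is under the floor. Its relative Ube2g1 had 1701 and 2931 in aortic and 1282 and 3414 in endocardial cells, 2 probe sets of opposite sign (-0.41 and 0.22). Ube2j2, an E2 anchored in the membrane of the endoplasmic reticulum and of the same degradation route, had 7506 in aortic and 7516 in endocardial cells (0.00).

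The E2 pair Ube2a and Ube2b, close homologues that act in DNA damage tolerance and histone ubiquitination, were bright on both arrays. Ube2a had 7952 in aortic and 6377 in endocardial cells (-0.32). Ube2b had 4213, 4906 and 5916 in aortic and 3789, 4525 and 6853 in endocardial cells, with a gene value of -0.12 and 1 of 3 probe sets higher. Ube2d2, an E2 that works with many ligases, had 3093 and 3131 (0.02). Ube2h had 1032 and 1319 (0.35), both under the highest background control, and Ube2q2 lay next to the floor with 637 and 604.

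Ube3a, the ligase whose maternal loss causes Angelman syndrome, had 2235 in aortic and 1718 in endocardial cells, the lowest log2 ratio among the ubiquitin enzymes (-0.38). It rests on 1 probe set, whose endocardial value is under the highest background control. Against that control it was at least 1.28-fold lower. Of the deubiquitinases Uchl1, a ubiquitin hydrolase abundant in neurons, had 1617, 1810 and 2353 in aortic and 1505, 2603 and 3162 in endocardial cells. The gene value was 0.43, with 2 of 3 probe sets higher on the endocardial array and 1 lower (-0.10). Usp19, a deubiquitinase anchored in the endoplasmic reticulum, had 4292 and 3691 (-0.22). Usp40 had 2860 and 2861 for 1 probe set (0.00), and the other, 283 and 808, was under the floor on the aortic array.

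**Figure D3:**
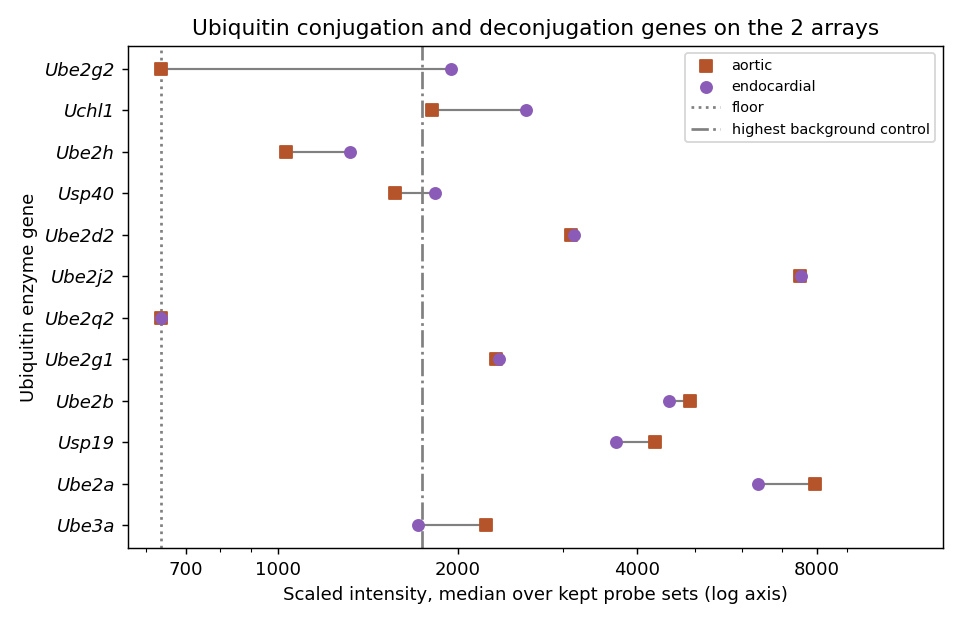
Scaled intensity (x, log axis) of the 12 measured ubiquitin enzyme genes (y), as the median over kept probe sets, on the aortic array (squares) and the endocardial array (circles); values under the floor are drawn at it. Ube2g2 shows the widest gap, with its aortic value at the floor, while Ube2j2 and Ube2d2 coincide.

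Other genes of the ubiquitin pathway also lay near equality. From a list of 106 genes outside the symbol families above, 31 were on the array and 27 were measured, with 0 at least 2-fold higher and 0 lower, against 5.93% and 4.16% of all measured genes. Their median log2 ratio was 0.02, and 22 of 27 (81.5%) lay within 0.5 of 0, against 89.5% of the members; the difference between these shares was not tested. The lowest were Cul2, a scaffold of cullin ligases, with 1812 in aortic and 1017 in endocardial cells (-0.83, or at least 1.04-fold lower against the highest background control), and the muscle ligase Trim63 with 4635 and 2939 (-0.66). The highest were Traf2, a ligase of tumour necrosis factor signalling, at least 1.53-fold higher against the floor with 335 and 974, both under that control, and Cand1, the exchange factor of cullin ligases, with 2234 and 3323 (0.58). Pomp, the chaperone that completes the assembly of the 20S core, had 22186 and 22983 (0.05). Nfe2l2, a transcription factor that binds antioxidant response elements, had a log2 ratio of 0.04 from 2 probe sets of opposite sign. Vcp, the ATPase that extracts ubiquitinated proteins for the proteasome, had a log2 ratio of 0.40, with probe sets at -0.04 and 0.84.

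Genes that carry proteasome products to the cell surface were examined beside the immunoproteasome. In the RefSeq gene order Psmb8 and Psmb9 neighbour the peptide transporter genes Tap1 and Tap2, and the start sites of Psmb9 and Tap1 lie 457 bases apart on opposite strands. Of 9 class I peptide loading genes on the array 8 were measured, with 0 at least 2-fold higher and 0 lower, against 5.93% and 4.16% of all measured genes, so a list of this length could hardly differ from the background. The median log2 ratio was 0.19 and 6 values were above 0. B2m, the light chain of MHC class I, had 16252 in aortic and 23682 in endocardial cells (0.54). Tap1 had 1979 and 2861 (0.53), with both of its probe sets higher (0.52 and 0.54), whereas the neighbouring Psmb9 had a gene value of -0.13. Tap2 had 1343 and 1575 (0.23), neither above the highest background control. RT1-M3-1, a class I heavy chain, had the lowest value of the list (-0.37) and RT1-S3 had -0.04.

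**Figure D4:**
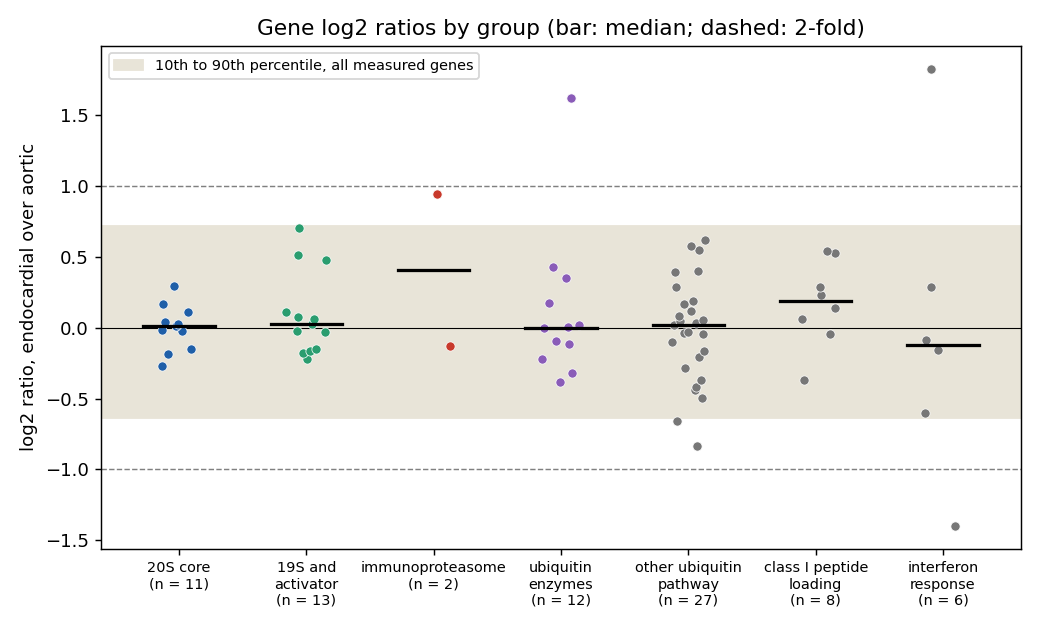
Gene log2 ratios, endocardial over aortic (y), for the 4 groups of members and 3 further gene lists (x), with a bar at each median, dashed lines at 2-fold and a band from the 10th to the 90th percentile of all measured genes (-0.64 to 0.72). The core genes span the narrowest range of the groups with over 2 genes, and 1 member, Ube2g2, lies past 2-fold.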

How the data were processed

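The authors deposited 1 linear intensity per probe set and array, which can fall below 0; no label or header names the summarising software. Control probe sets (59) named no gene here, and the remaining 8740 were scaled to a shared 2% trimmed mean (factors 1.00 and 0.999). Between 24.3% and 25.8% of values were at or below 0, and the number of arrays limits the precision. The ratio of 3′ to 5′ control intensities was 1.11 and 1.09 for beta-actin and 1.17 and 1.21 for GAPDH on the aortic and endocardial arrays. Probe sets were named from GEO's platform annotation (7006 with 1 symbol, 308 with several, 1426 with none); all 43 members matched the RefSeq gene table. A fold is a lower bound where the dimmer value is under the floor. Every member of the proteasome groups is named; of other lists, genes past 2-fold and the extremes, with some chosen after their values were seen. Members and lists were chosen with earlier results of these data known. Python 3.11.15, numpy 2.4.6, pandas 2.3.3 and statsmodels 0.14.6 were used, and the steps were tested on simulated data. The simulation put differences into bright genes alone, so it does not cover differences near the floor. Alternatives covered scaling, centring, the floor and the treatment of probe sets.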

Additional observations from a re-analysis of the deposited data

How the results depend on the processing

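No paired analysis was possible because each group had 1 array. Over 12 settings, the reported one included, the median log2 ratio stayed between -0.05 and 0.04 for the 20S core, between -0.01 and 0.05 for the 19S particle and activators, between -0.08 and 0.02 for the ubiquitin enzymes and between -0.03 and 0.05 for the other ubiquitin pathway list. The interferon response median turned from -0.12 to 0.14 with the floor at the 75th percentile, where 2 genes were left. Leaving out ubiquitin precursors and enzymes of other modifiers removed no measured gene. The immunoproteasome median fell to -0.10 with the highest background control as the floor, and at the 75th percentile neither gene was left. Member genes at least 2-fold higher numbered 0 with the floor at the 75th percentile, at that control, or with values above the floor on both arrays required, each of which removes or bounds Ube2g2. Lower members numbered 1 of 42 with no floor (Ube2d2b, with 58.9 and 12.4) and 1 of 62 with plain probe sets (the Psmd1 probe set). The number of genes counted changed with the setting. All measured genes at least 2-fold higher numbered 109 of 2452 with both arrays above the floor, 45 of 1505 at the 75th percentile and 76 of 1904 at the control. They numbered 342 of 3600 with no floor and 271 of 3975 with plain probe sets. Lower ones numbered 40, 45, 410 and 187 in the last 4 of these settings, out of the same totals. The small member counts cannot be set apart from these backgrounds. Higher interferon response genes numbered 0 of 2 at the 75th percentile and 2 of 8 with no floor, and lower ones 0 of 2 at the 75th percentile. Of the other ubiquitin pathway list 1 of 27 genes was higher with no floor.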

Other observations

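The interferon response raises the immunoproteasome subunits. Genes of a list for this response, which includes the receptor chains Ifngr1 and Ifnar1, went both ways. Of 9 on the array 6 were measured, and 1 passed 2-fold in the higher direction, against 5.93% of all measured genes, and 1 in the lower, against 4.16%. The higher one, Ifngr1, is a chain of the interferon gamma receptor. It read 1220 in aortic and 4330 in endocardial cells, a log2 ratio of 1.83, and was at least 2.48-fold higher against the highest background control. Mx2, an interferon-induced antiviral GTPase, read 3578 and 1357 (-1.40, or at least 2.05-fold lower against that control), and the antiviral enzyme Oas1a had 2144 and 1414 (-0.60, or at least 1.23-fold lower). Irf1, a factor that acts on immunoproteasome genes, had 1479 and 1808 (0.29), the aortic value under that control. Stat2 had a log2 ratio of -0.08, with both values under that control. The list median was -0.12, with a range from -0.20 to 0.14 over the alternative settings. Of the interferon-inducible proteasome genes Psmb8 stood at 0.94, Psme2 at 0.48, Psme1 at 0.06 and Psmb9 at -0.13. The aortic value of Psmb8 is under the highest background control. A difference between these genes and the list was not tested. Each measured gene of the interferon response list rests on 1 probe set.

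Probe sets made for the same accession, with names ending in _at and _g_at, did not give the same ratio for many members. Of 13 member pairs above the floor on both arrays the _at set had the higher endocardial over aortic ratio in 10, with a median difference of 0.21 on the log2 scale. Over all 324 such pairs on the array it was higher in 171 (52.8%), with a median difference of 0.03. Without regard to sign the median difference was 0.21 for the members and 0.22 over all pairs. Member pairs thus differed no more in size than pairs across the array. Among these 13 pairs the widest differences were in Psmb9 (0.80), Ube2g1 (0.63), Psmb4 (0.59) and Uchl1 (0.53), each with opposite signs for its 2 sets. The pairs of Psmd1 and Usp40 were left out, because a set of each was under the floor on an array. In both the _at set had the lower ratio. Against the floor Psmd1 had at most -1.95 for _at and -0.23 for _g_at, a wider gap than in any of the 13. Usp40 had 0.00 for _at and at least 0.35 for _g_at. The direction shared by most member pairs was noticed in the data and was not tested.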
